A study of Rattus norvegicus with 19 samples.

Results

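The comparison described here set the T11 dorsal root ganglion of rats at day 14 after a skin denervation that induces collateral sprouting against the same ganglion of naive rats. It was chosen by the sample titles and took 12 of the 19 arrays of the series, 7 at day 14 and 5 naive, and it was read across all 31042 probe sets that are not array controls. All rats were adult female Sprague-Dawley animals, and each gave 1 ganglion and 1 Affymetrix rat expression array, so the arrays of a group are separate animals. For the day 14 group, surgery on one side had severed the dorsal and lateral cutaneous nerves at T9, T10, T12 and T13, leaving the intact T11 nerves next to denervated skin. Naive rats were the controls and no sham-operated group was analysed, so effects of the operation as such and of the neighbouring denervation cannot be told apart. The study presumed day 14 to be a phase in which sprouting is maintained. 1 further naive array had been removed by the submitters after quality control and was not analysed here.

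In a dorsal root ganglion, the somata of a segment's sensory neurons lie wrapped by satellite glia, together with Schwann cells, macrophages, vessels and connective tissue. In collateral sprouting, uninjured sensory axons extend new branches into nearby skin that has lost its own nerve supply, a process that depends on nerve growth factor made by the denervated skin. It differs from regeneration, in which a cut axon regrows and its cell body switches on a well-known injury programme that includes Atf3, Sprr1a and galanin. Because whole ganglia were measured, fewer cells of a type and less RNA per cell cannot be told apart.

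Values are log2 levels per probe set, and a difference is the day 14 mean minus the naive mean. The ganglion label was borne out by its markers: the mean level over 20 sensory neuron markers was between 11.57 and 11.65 on the naive arrays and between 11.49 and 11.69 at day 14. The median standard error of a difference was 0.080, and the number of arrays limits the precision. Skeletal muscle markers stood apart on naive replicate 1, with a mean level of 8.84 over 21 genes, and on day 14 replicate 2, with 7.49, where the other arrays of both groups lay between 6.09 and 6.34. The signal ratio of the 3′ to the 5′ end of the Actb and Gapdh control probe sets, on the log2 scale, was 3.26 to 3.69 in naive rats and 3.18 to 3.36 at day 14. The letters that open the animal codes in the labels, whose meaning the labels do not give, also differed. Of the 7 day 14 rats 5 carried AI and replicates 3 and 4 carried AJ, while 2 naive rats carried AJ and 3 AK. No naive rat carried AI and no day 14 rat AK. Code and group were thus largely confounded, and their effects cannot be fully told apart.

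The limma fit took in all 19 arrays of the series and pooled the spread over naive, day 7 and day 14 rats. The standard errors given here come from that fit. In it, 43 probe sets passed a Benjamini-Hochberg adjusted p of 0.05, 0.139% of those tested. Of these, 8 rose (0.0258% of all) and 35 fell (0.113% of all). The largest rise of a named gene was that of Bdnf, a neurotrophin made by some sensory neurons. Among named genes the falls were led by Ccdc127, a coiled-coil protein of little known function, and included 4 genes of primary cilium transport. A larger called fall, at -0.89, was that of 1375028_at, 1 of 13 called falls on probe sets without a single gene symbol. In 35 of the 43, 6 higher and 29 lower, the 7 day 14 arrays did not overlap the 5 naive arrays, against 1.82% of all probe sets tested. A call on these arrays itself favours such separation, so the contrast is a description only. The differences were small, with a median size of 0.43, and 1 of the 43 was larger than a fold of 2. The plot of called genes shows each array.

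**Figure D1:**
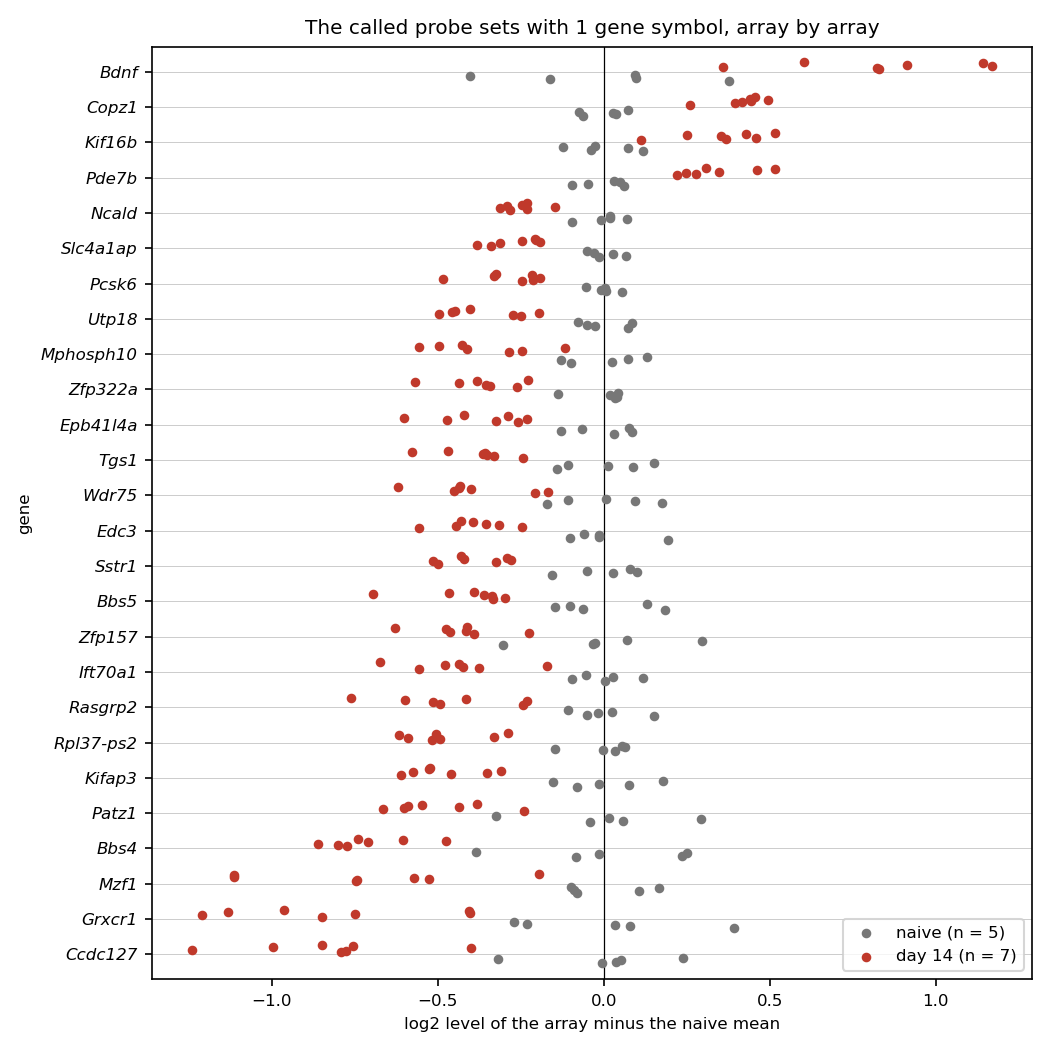
Each row is 1 of the 26 called probe sets with 1 gene symbol, and each point is 1 array, plotted as its log2 level minus the mean of the naive arrays (naive grey, n = 5; day 14 red, n = 7). The red points lie to the right for 4 genes, Bdnf, Copz1, Kif16b and Pde7b, and to the left for the other 22.

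The calls depended on the libraries and covariates used. With the day 14 and naive arrays alone, without day 7, there were 13 calls, 9 of them among the 43. When a naive array was dropped, the count became 401 (replicate 1), 28 (replicate 2), 5 (replicate 3) or 15 (replicate 5). When a day 14 array was dropped, it became 65 (replicate 1), 26 (replicate 2), 6 (replicate 5) or 16 (replicate 6). It was 12 without the 3 arrays of the series that were high in muscle transcripts. With the code letters as a block it was 0. That fit had 1996 probe sets at an unadjusted p under 0.05, against 6101 without the block (19.7% of those tested, 10.9% higher and 8.79% lower). AI occurs only at day 14, so in the block fit the day 14 difference rests on replicates 3 and 4. An effect of the code and lost precision therefore cannot be told apart. A covariate for the 3′ to 5′ ratio also left 0, with 3334 at an unadjusted p under 0.05. All 43 kept their sign in both of these fits, among the AI-coded and the AJ-coded day 14 rats taken separately against naive, and between the 2 day 14 and the 2 naive rats coded AJ. The 43 were chosen for their difference on these same arrays, which favours kept signs, so this adds no support.

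Among genes that rose, Bdnf supports sensory and central neurons and is released from sensory terminals. On the brighter of its probe sets the naive arrays read 8.32, 7.78, 8.04, 7.53 and 8.03, and the day 14 arrays ran from 8.30 through a median of 8.77 to 9.11. All but 1 of the day 14 rats lay above every naive rat, and the exception was replicate 3. The difference was 0.83 ± 0.16 (SE, n = 7 and 5), a fold of 1.78 (limma adjusted p = 0.038). Replicate 3 carried the highest Npy, Gal and Atf3 levels of the group, so that the rat lowest in Bdnf was the highest in those injury genes. The other Bdnf probe set ran from 5.74 to 6.20 in naive rats and from 6.14 to 6.51 at day 14, a difference of 0.33 ± 0.08 (adjusted p = 0.073).

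Copz1 encodes the zeta subunit of the COPI coat, which carries vesicles from the Golgi back to the endoplasmic reticulum. Its called probe set read 6.77, 6.87, 6.86, 6.76 and 6.91 in naive rats and 7.09 to 7.33 at day 14, with a median of 7.28. The groups did not overlap, and the difference was 0.42 ± 0.06 (limma adjusted p = 0.0079). The other Copz1 probe set, which is brighter at a naive mean of 11.46, differed by 0.04 ± 0.07, so the probe sets of this gene disagreed in size. Copg1, the gamma subunit of the same coat, singled out after its values were seen, stood at 12.18 to 12.32 in naive rats and 12.33 to 12.42 at day 14 without overlap, a difference of 0.12 that did not pass (adjusted p = 0.157). Of 29 measured COPI, COPII and Golgi transport genes 20 were higher, with a median of 0.04 against 0.0025 over all 14217 genes, each gene read on its brightest probe set.

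Kif16b, a kinesin that carries early endosomes, read 6.48 to 6.72 in naive rats and 6.71, 6.97 and 7.12 as lowest, median and highest at day 14. The difference was 0.36 ± 0.07 (limma adjusted p = 0.048), with 6 of 7 day 14 arrays above all naive arrays. Its 4 other probe sets differed by -0.11 to 0.04. Pde7b, a phosphodiesterase that degrades cyclic AMP, read 5.59 to 5.75 in naive rats and 5.91 to 6.20 at day 14 without overlap, a difference of 0.34 ± 0.06 (adjusted p = 0.037).

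The other 4 rises belong to probe sets with no gene name in the annotation. The largest, 1391735_at, read 4.97 to 5.29 in naive rats and 5.33, 7.41 and 8.38 as lowest, median and highest at day 14. All 7 arrays were above every naive array, but replicate 3 was just above them and 6 were 7.31 or higher. The difference was 2.22 ± 0.40 (limma adjusted p = 0.028). Probe set 1385926_at was the most uniform of these, at 6.94 to 7.32 in naive rats and 7.54 to 7.77 at day 14 (difference 0.58 ± 0.08, adjusted p = 0.0075).

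Ccdc127 had the largest fall of a named gene. Its called probe set read 9.22, 9.26, 9.28, 8.91 and 9.47 in naive rats, and 7.99, 8.44 and 8.83 as lowest, median and highest at day 14. Every day 14 rat lay below every naive rat. The difference was -0.83 ± 0.14, a fold of 1.78 lower (limma adjusted p = 0.023). Grxcr1, a glutaredoxin-like protein known from the hair cells of the inner ear, fell by 0.82 ± 0.15, from naive levels of 8.37, 8.05, 8.01, 7.75 and 7.71 to day 14 levels of 6.77 to 7.58 (adjusted p = 0.029). Naive replicate 1, the array highest in muscle transcripts, was also the highest in Grxcr1, and without the muscle-high arrays the difference was -0.65 (adjusted p = 0.067).

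A group of called genes encodes zinc finger proteins that bind DNA. Mzf1, a transcription factor first described in myeloid cells, read 6.98, 7.17, 6.97, 7.23 and 6.96 in naive rats and 5.95, 6.32 and 6.87 as lowest, median and highest at day 14. It fell by 0.72 ± 0.13 without overlap (limma adjusted p = 0.034), while its other probe set stood at 0.16 ± 0.08. Patz1, a transcriptional regulator with an AT-hook, fell by 0.49 ± 0.10 (adjusted p = 0.048), Zfp157 by 0.43 ± 0.08 (adjusted p = 0.037) and Zfp322a by 0.37 ± 0.07 (adjusted p = 0.048). Other probe sets stood at 0.02 for Patz1 and -0.06 for Zfp157. Over 35 measured zinc finger regulators, a list that holds Mzf1, Patz1 and Zfp157, 18 were higher and 17 lower and the median was 0.01.

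Several called genes act on RNA. Wdr75, Mphosph10 and Utp18 are parts of the small-subunit processome, the nucleolar particle that makes the small ribosomal subunit. Utp18 read 5.41 to 5.57 in naive rats and 4.99 to 5.30 at day 14 without overlap and fell by 0.36 ± 0.06 (limma adjusted p = 0.024). Wdr75 fell by 0.39 ± 0.08 (adjusted p = 0.046) and Mphosph10 by 0.36 ± 0.07 (adjusted p = 0.048), each with 6 of 7 day 14 arrays below all naive arrays. Their other probe sets stood at -0.12 and -0.56, the latter on the brighter Mphosph10 probe set (adjusted p = 0.171). Tgs1, which methylates the caps of small nuclear and nucleolar RNAs, fell by 0.39 ± 0.08 (adjusted p = 0.046), and Edc3, a scaffold of mRNA decapping, by 0.39 ± 0.08 (adjusted p = 0.044). A list of 40 processome genes, added after these calls were seen, had 22 members lower and 18 higher with a median of -0.05. Rpl37-ps2, annotated as a ribosomal protein pseudogene, fell by 0.48 ± 0.07 (adjusted p = 0.018), from 7.07 to 7.28 down to 6.60 to 6.92. Its probes may also bind the transcript of a near-identical ribosomal protein gene, so the source of the signal is uncertain.

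The remaining named falls concern signalling and secretion. Sstr1, an inhibitory somatostatin receptor, read 6.71, 6.90, 6.97, 6.82 and 6.95 in naive rats and 6.36 to 6.59 at day 14. It fell by 0.39 ± 0.07 without overlap (limma adjusted p = 0.023), while its dimmer probe sets stood at 0.13 and 0.18. Rasgrp2, an exchange factor for the small GTPase Rap, fell by 0.47 ± 0.09 (adjusted p = 0.048). Pcsk6, a protease that matures secreted precursors, fell by 0.29 ± 0.05 (adjusted p = 0.034) and Ncald, a calcium sensor of neurons, by 0.25 ± 0.05 (adjusted p = 0.029). Ncald was the brightest called gene, at 11.77 to 11.94 in naive rats and 11.56 to 11.72 at day 14. Epb41l4a, a membrane skeleton protein, fell by 0.37 ± 0.07 (adjusted p = 0.027), and Slc4a1ap, named for binding an anion exchanger, fell by 0.27 ± 0.05 (adjusted p = 0.028).

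Of the genes with a call, 16 had at least 2 probe sets, and in 10 of these (62.5%) all probe sets lay on one side of naive. Over all 4525 genes with at least 2 probe sets this share was 47.2%. Only Kcna6 and Ccdc127 had at least 2 probe sets without overlap and all in 1 direction. Kcna6, a voltage-gated potassium channel subunit of axons, read 5.32 to 5.57 in naive rats and 5.58 to 6.11 at day 14 on 1 probe set, and 4.14 to 4.25 against 4.31 to 4.56 on another. Their differences were 0.35 ± 0.09 and 0.19 ± 0.05 (limma adjusted p = 0.077 and 0.086), and neither passed. The third and brightest Kcna6 probe set, at 10.59 in naive rats, stood at 0.12 ± 0.10. For Ccdc127 the other probe sets read 6.56 to 6.96 in naive rats against 5.51 to 6.50 at day 14, and 6.18 to 6.48 against 5.60 to 6.20. The latter overlapped in 1 rat, replicate 4, which was the highest day 14 rat on each of the 3 probe sets. With fewer arrays groups overlap less by construction, and the number of such genes became 15 when naive replicate 1 was dropped, 4 for naive replicate 2 or 3 and 5 for naive replicate 4. It became 4, 5 and 6 when day 14 replicate 3, 4 or 7 was dropped. It was 18 without the muscle-high arrays. Kcna6 was lost with dim probe sets left out, where Ccdc127 alone remained. After quantile renormalization the genes were Tnik and Ccdc127.

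**Figure D2:**
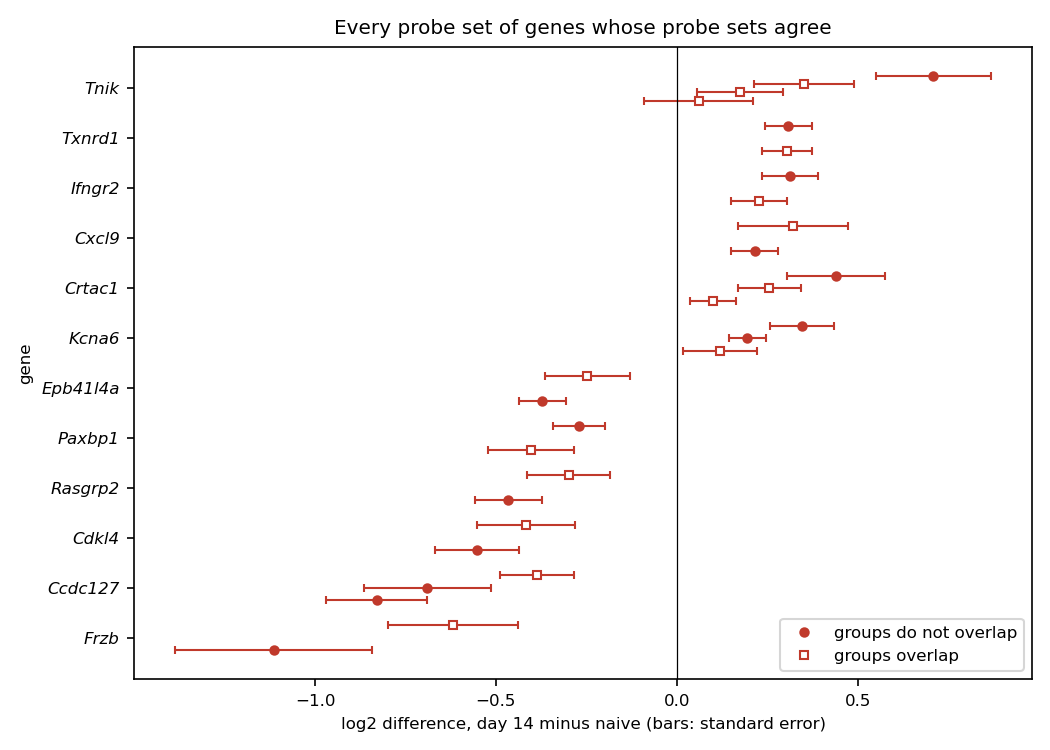
Log2 difference of day 14 from naive (x axis) for every probe set of 12 genes whose probe sets all lie on one side, with standard errors. Filled circles are probe sets whose day 14 and naive arrays do not overlap: Kcna6 and Ccdc127 have 2 of them, and the other genes 1.

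A further 18 genes higher and 14 lower had 1 probe set without overlap and another at an unadjusted p under 0.05, all in 1 direction. Frzb, a secreted inhibitor of Wnt ligands, showed the largest mean difference. It read 8.86 to 9.29 in naive rats and 6.53, 7.99 and 8.65 as lowest, median and highest at day 14. The difference was -1.11 ± 0.27 (limma adjusted p = 0.076), and -0.62 on the other probe set. Cdkl4, a kinase of the cyclin-dependent kinase-like family, stood at -0.55 and -0.42, and Paxbp1, which binds the transcription factors Pax3 and Pax7, at -0.27 and -0.40. Rasgrp2 and Epb41l4a, called on 1 probe set, stood at -0.30 and -0.25 on the other.

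On the higher side of this group, Tnik, a kinase that acts in Wnt signalling and on the cytoskeleton, read 6.77 to 7.37 in naive rats and 7.67 to 8.29 at day 14. Its difference was 0.71 ± 0.16 (limma adjusted p = 0.069), with 0.35, 0.17 and 0.06 on the other probe sets. The last of these turned to -0.0053 without day 14 replicate 3 and to -0.017 without naive replicate 3. Txnrd1, the cytosolic thioredoxin reductase, agreed closely between probe sets of very different brightness, at 0.31 ± 0.07 and 0.30 ± 0.07 (adjusted p = 0.063 and 0.069) around naive means of 6.49 and 10.62. Ifngr2, a subunit of the interferon gamma receptor, stood at 0.31 and 0.23, Crtac1, a secreted protein that opposes the Nogo receptor, at 0.10 to 0.44, and Cxcl9, an interferon-induced chemokine, at 0.21 and 0.32. Cxcl9 was dim, at naive means of 4.44 and 4.89.

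Genes of the BBSome and of intraflagellar transport carry proteins along the primary cilium, the single antenna-like organelle of neurons and glia. The BBSome is a cargo coat, and the IFT particles are the trains that kinesin-2 moves outward and dynein-2 returns. Of 37 measured genes 31 (83.8%) were lower at day 14, against 49.3% of all genes, and the median was -0.13 against 0.0025. At an unadjusted p under 0.05, 13 were lower (35.1%, against 10.3% of all genes) and 0 higher. The list was chosen with earlier results of these data known, so its direction is not independent evidence. The mean level over the 37 genes was 8.35 to 8.40 on the naive arrays and 8.13 to 8.31 on the day 14 arrays, without overlap, and it was lowest in replicate 3 and highest in replicate 4.

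4 of these genes had a called probe set. Bbs4, a BBSome subunit that binds pericentriolar material, read 7.04, 7.36, 7.11, 7.38 and 6.74 in naive rats and 6.27, 6.39 and 6.65 as lowest, median and highest at day 14. Every day 14 rat was below every naive rat, the difference was -0.71 ± 0.11 (limma adjusted p = 0.019), and the other probe set stood at -0.13 ± 0.13. Bbs5, the membrane-binding BBSome subunit, read 7.05, 6.80, 6.71, 6.76 and 6.99 in naive rats and 6.17, 6.50 and 6.56 at day 14, again without overlap. It fell by 0.41 ± 0.08 (adjusted p = 0.034). Ift70a1, a part of the IFT-B particle, read 7.58 to 7.79 in naive rats and 7.00 to 7.50 at day 14 and fell by 0.45 ± 0.08 (adjusted p = 0.028). Kifap3, the accessory subunit that joins the kinesin-2 motor to cargo, fell by 0.48 ± 0.09 on 1 probe set (adjusted p = 0.034), while its brightest probe set stood at -0.19 and the third at 0.15.

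Among the rest, Bbs1, a BBSome subunit, had the largest difference, -0.53 ± 0.15 (limma adjusted p = 0.103), with 5 of 7 day 14 arrays below all naive arrays. Ift88, needed to build the IFT-B train, stood at -0.29 ± 0.08 with 6 of 7 below (adjusted p = 0.087). Ttc8 and Bbs7, further BBSome subunits, did not overlap between groups and stood at -0.28 and -0.23. The motor genes Kif3a (0.14) and Dync2h1 (0.16) were on the higher side. Both turned below naive with the code letters as a block, to -0.10 and -0.04, where the day 14 side rests on replicates 3 and 4. The median of the list was -0.10 without day 14 replicate 3, -0.08 after renewed quantile normalization or with the mean over a gene's probe sets and -0.10 without the muscle-high arrays. Of 25 other primary cilium and centrosome genes 18 were lower, with a median of -0.04 and 0 called.

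**Figure D3:**
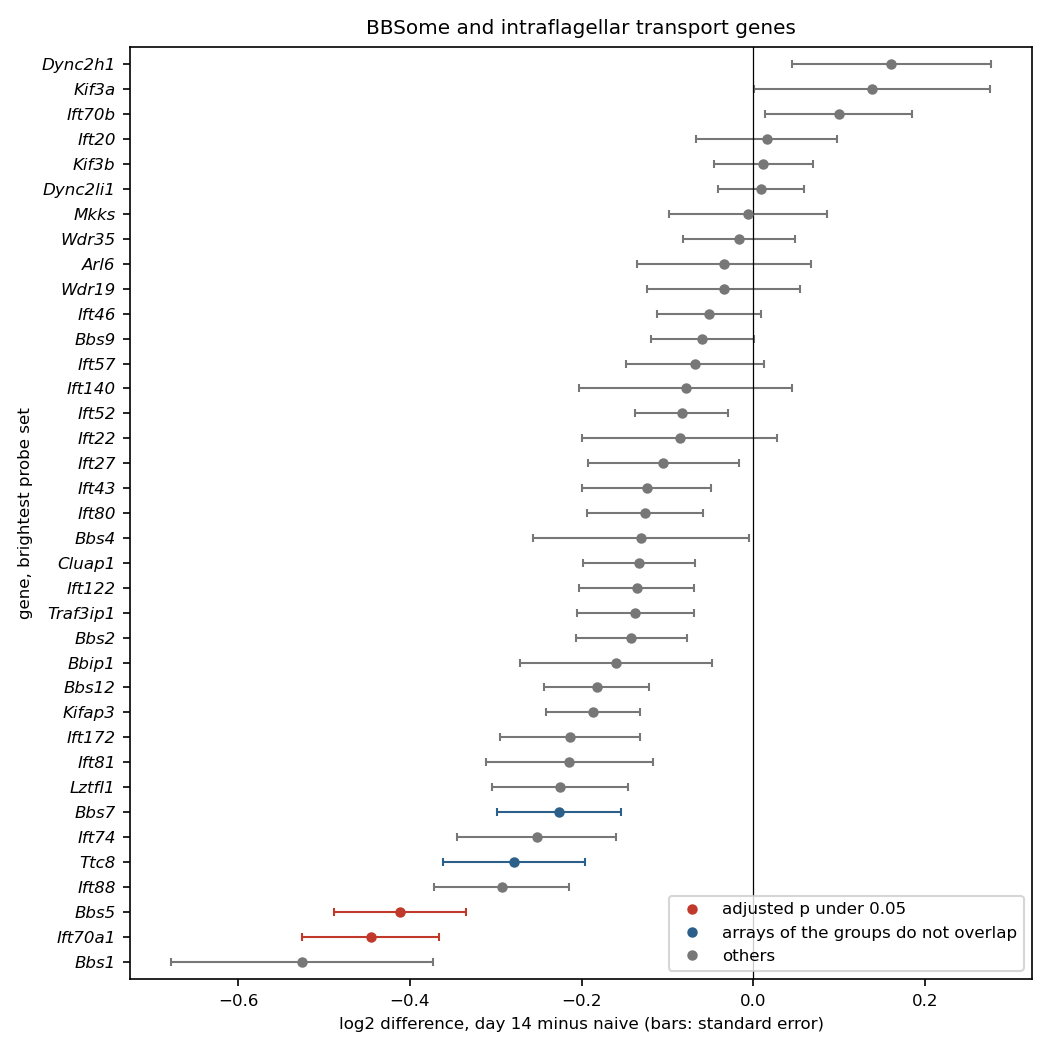
Log2 difference of day 14 from naive (x axis, with standard error) for the brightest probe set of each of 37 BBSome and intraflagellar transport genes (y axis). Of the 37, 31 lie left of 0, Bbs5 and Ift70a1 passed the test (red), and Ttc8 and Bbs7 did not pass but have groups that do not overlap (blue).

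Promoters of these genes are shown because cilium genes are known targets of RFX transcription factors. The matches do not depend on the levels measured here, and a part of RFX factors in these differences was not tested. RefSeq promoters of build GRCr8, from 250 bases before to 50 after the start, were matched by symbol for 33 of the 37 measured genes. The RFX core motif GTTGCC, on either strand, was present in 16 of the 33 (48.5%) and in 13.1% of all 27457 genes with a promoter in the table. Bbs5, Bbs1 and Ift88 hold 1 such match each, while Bbs4, Kifap3 and Ift70a1 hold none. Capitals mark the match, which in Ift88 is read on the opposite strand, and each sequence is written 5′ to 3′ on the gene's strand.
Bbs5, chr3:74818390-74818689, plus strand: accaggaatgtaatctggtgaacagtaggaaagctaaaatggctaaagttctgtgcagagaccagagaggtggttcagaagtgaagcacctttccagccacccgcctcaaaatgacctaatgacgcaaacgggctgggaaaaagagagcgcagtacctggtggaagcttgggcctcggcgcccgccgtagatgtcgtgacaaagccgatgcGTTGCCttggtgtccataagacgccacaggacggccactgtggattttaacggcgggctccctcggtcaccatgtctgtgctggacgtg
Bbs1, chr1:211633419-211633718, minus strand: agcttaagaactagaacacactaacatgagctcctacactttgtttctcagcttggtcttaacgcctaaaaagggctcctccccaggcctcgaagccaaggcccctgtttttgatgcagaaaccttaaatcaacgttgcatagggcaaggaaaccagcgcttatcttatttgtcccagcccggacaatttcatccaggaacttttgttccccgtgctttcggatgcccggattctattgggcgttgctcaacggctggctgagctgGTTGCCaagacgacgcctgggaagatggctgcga
Ift88, chr15:35688737-35689036, plus strand: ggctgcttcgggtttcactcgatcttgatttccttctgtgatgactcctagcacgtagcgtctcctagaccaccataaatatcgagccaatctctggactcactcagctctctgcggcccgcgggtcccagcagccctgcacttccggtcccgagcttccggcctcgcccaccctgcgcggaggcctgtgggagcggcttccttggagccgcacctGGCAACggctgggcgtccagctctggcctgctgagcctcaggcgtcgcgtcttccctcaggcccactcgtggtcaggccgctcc
Bbs4, chr8:68661183-68661482, minus strand: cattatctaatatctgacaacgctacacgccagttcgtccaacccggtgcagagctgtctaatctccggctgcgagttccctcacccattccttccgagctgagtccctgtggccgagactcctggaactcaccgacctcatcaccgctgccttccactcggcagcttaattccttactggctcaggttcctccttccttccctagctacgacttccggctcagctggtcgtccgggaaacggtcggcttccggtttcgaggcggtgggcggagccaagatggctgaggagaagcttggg

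Among the 21 called genes with a promoter in the table, 3 (Bbs5, Bdnf and Utp18) held the RFX core, 14.3%, and Pde7b, Rpl37-ps2, Epb41l4a, Ncald and Tgs1 were not matched. The other motifs searched on both strands were found in the cilium genes and in all genes at 0 and 2.00% for the cyclic AMP element TGACGTCA, 3.03% and 8.04% for the AP-1 site TGANTCA, 9.09% and 7.08% for the E-box CACGTG, and 9.09% and 15.3% for the TATA box TATAAA. A loose pattern of CC and GG with any 6 bases between, which does not ask for the A and T bases of an SRF site, was found in 78.8% and 73.3%. Of the 21 called genes, 0 held the cyclic AMP element, 4.76% the AP-1 site, 4.76% the TATA box and 76.2% the loose pattern. The E-box was held by 5 of the 21 (23.8%), Bdnf, Patz1, Rasgrp2, Utp18 and Wdr75, and this share was not tested. The letters ACGT are common to the cyclic AMP element and the E-box. These are matches of letters and not measured binding.

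Beyond the calls, 565 probe sets (1.82%) had groups that did not overlap, 332 higher (1.07%) and 233 lower (0.751%). None of the following genes, which had the largest such differences, passed the test. On the higher side Gadd45a, a stress-response gene that is induced in injured neurons, read 8.49, 8.26, 8.16, 7.46 and 8.29 in naive rats and 8.56, 8.90 and 9.71 as lowest, median and highest at day 14, a difference of 0.94 ± 0.23 (limma adjusted p = 0.076). A2m, a secreted protease inhibitor, stood at 0.91 ± 0.22, from 7.43 to 7.73 in naive rats and from 8.07 to 9.22 at day 14 (adjusted p = 0.073). Timp1, an inhibitor of matrix metalloproteases, read 10.29 to 10.49 in naive rats and 10.61 to 11.45 at day 14, a difference of 0.62 ± 0.14 (adjusted p = 0.073). Both inhibitors were thus higher in every day 14 rat than in any naive rat.

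Reg3a, a secreted lectin of the regenerating family, stood at 0.68 from a low naive mean of 5.01 (limma adjusted p = 0.210). Cnmd, a cartilage glycoprotein, read 9.66 to 9.98 in naive rats and 10.24 to 10.65 at day 14, a difference of 0.65 ± 0.14 (adjusted p = 0.066). Flrt3, an adhesion protein of growing axons, stood at 0.65 ± 0.21 (adjusted p = 0.121), and Gabra5, a subunit of GABA-A receptors, at 0.65 ± 0.15 (adjusted p = 0.073). On the lower side, beside genes already given, Col24a1, a fibrillar collagen, read 8.35, 8.59, 8.29, 9.12 and 9.37 in naive rats and 6.80, 7.96 and 8.26 at day 14, a difference of -0.94 ± 0.23 (adjusted p = 0.077). Within AJ-coded rats Col24a1 stood at -0.22. Eif4e3, a cap-binding protein, stood at -0.57 ± 0.15 on 1 probe set and -0.05 on a brighter one.

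The nerve injury response list held the largest differences named here and no call. Of 31 measured genes 27 (87.1%) were higher, against 50.7% of all genes, and the median was 0.33. At an unadjusted p under 0.05, 15 were higher (48.4%, against 9.17% of all genes). The median was 0.59 with the code letters as a block and 0.55 among AJ-coded rats. On the day 14 side both values rest on replicates 3 and 4, and replicate 3 was the highest rat for this list. Npy, a neuropeptide made by injured large sensory neurons, read 7.32, 6.91, 7.66, 6.79 and 6.48 in naive rats. At day 14 it read 10.30, 7.58, 12.38, 10.28, 11.77, 10.39 and 7.39 in replicates 1 to 7. Replicates 2 and 7 thus lay within the naive range and replicates 3 and 5 far above it, and the difference of 2.98 ± 0.78 did not pass (limma adjusted p = 0.081).

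The same rats were high and low for other genes of the list. Atf3, a transcription factor induced by axon injury, read 7.94 to 8.44 in naive rats and 9.77, 8.33, 11.63, 9.92, 11.04, 9.68 and 8.12 in day 14 replicates 1 to 7, a difference of 1.62 ± 0.61 (limma adjusted p = 0.166). Gal, the neuropeptide galanin, read 8.81 to 9.32 in naive rats and 9.30, 10.44 and 11.64 as lowest, median and highest at day 14 (1.46 ± 0.40, adjusted p = 0.092). Vip, another injury-induced neuropeptide, stood at 2.89 ± 0.86 (adjusted p = 0.108), Csrp3, a LIM protein of muscle that also appears in injured neurons, at 3.04 ± 0.84 (adjusted p = 0.093), and Sprr1a, a growth-associated small protein, at 1.43 ± 0.49 (adjusted p = 0.143). Csrp3 read 5.57 and 6.37 on the 2 arrays high in muscle transcripts, against 10.47 in day 14 replicate 3. Gap43, the classic growth cone protein, read 12.64 to 12.78 in naive rats and 12.63 to 12.96 at day 14 and stood at 0.09 ± 0.06 (adjusted p = 0.410).

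**Figure D4:**
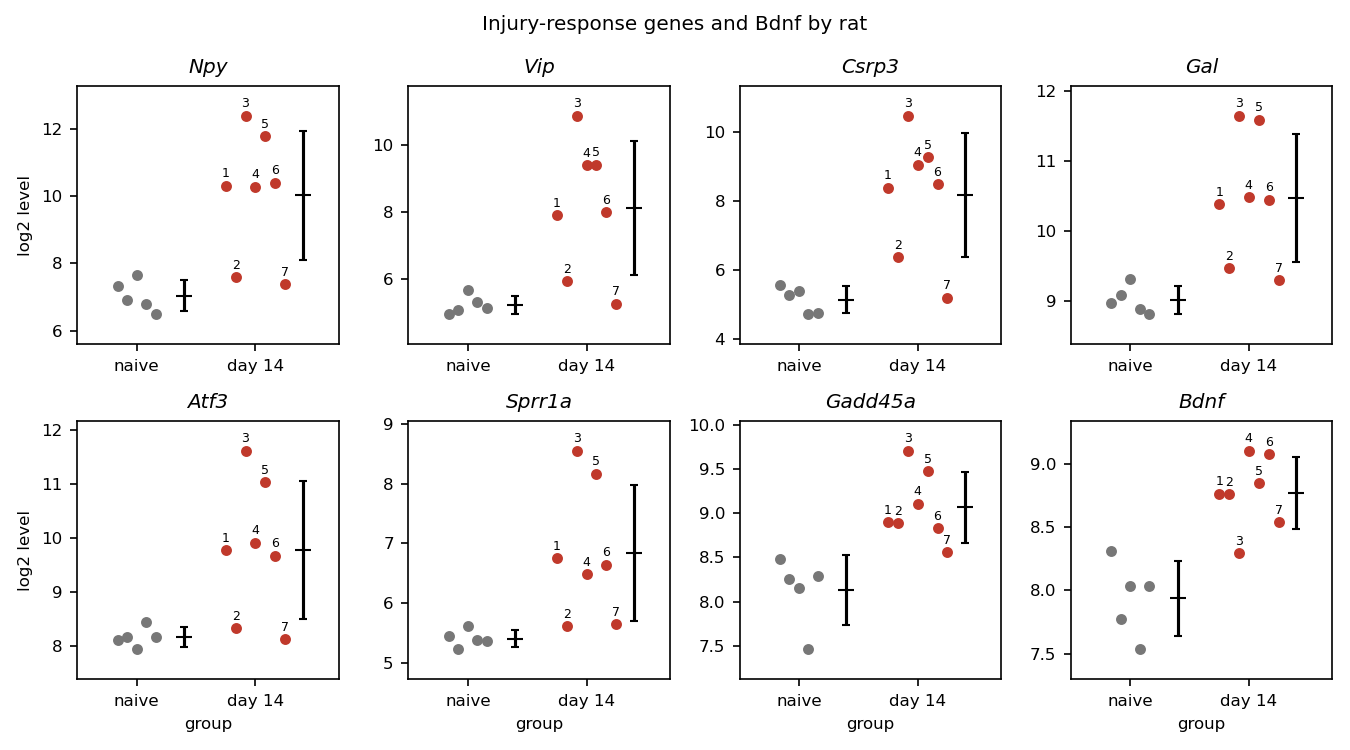
Log2 level (y axis, scaled per gene) of 7 injury-response genes and Bdnf for each rat of the naive (grey, n = 5) and day 14 (red, n = 7, numbered by replicate) groups, with the mean and SD of each group as a black mark and bar. Replicates 3 and 5 are highest for Npy, Gal, Atf3, Sprr1a and Gadd45a and replicates 2 and 7 lie near the naive rats for Npy, Vip, Atf3 and Sprr1a, whereas for Bdnf replicate 3 is the lowest of the day 14 rats.

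Across the 31 injury genes day 14 replicate 3 was the highest of the 7 rats for 21 and replicate 7 the lowest for 11. The mean level over the list was 7.86 to 8.02 on the naive arrays, 9.23 and 9.06 in day 14 replicates 3 and 5, 8.52, 8.52 and 8.56 in replicates 1, 4 and 6, and 8.12 and 7.97 in replicates 2 and 7. Over all probe sets the spread between rats was alike, with a median SD of 0.126 in naive rats and 0.130 at day 14. Named genes with an SD over 1 at day 14 and under 0.5 in naive rats numbered 14, and were chosen after their values were seen. They included Vip, Npy, Csrp3, Atf3 and Sprr1a of the injury list, and also Tslp, an epithelial cytokine (6.03 in naive rats, 5.83 to 8.35 at day 14), Crisp3, a secreted cysteine-rich protein (5.31, and 5.40 to 9.81), and Nrg1, a growth factor of axons for Schwann cells. Nrg1 lay the other way, at 9.26 to 10.35 in naive rats and 7.14, 8.36 and 10.58 as lowest, median and highest at day 14, and did not pass (limma adjusted p = 0.138). Another Nrg1 probe set stood at 0.11.

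Neurotrophic ligands and receptors other than Bdnf were close to naive. Of 27 measured genes 18 were higher, with a median of 0.03 and Bdnf as the single call. Gfra1, the receptor that binds GDNF, stood at 0.23 on its brighter probe set and 0.25 on the other, Fgf2, a fibroblast growth factor, at 0.22, and Pspn, a ligand of the GDNF family, at 0.22 (limma adjusted p = 0.131 to 0.170). Activity and cyclic AMP regulated genes had 13 higher and 14 lower, with a median of -0.03. Pde7b was the single call among them, and Fosb, an immediate early transcription factor, stood at -0.59 ± 0.22 (limma adjusted p = 0.164), with naive replicate 4 at 7.48 above all other arrays of both groups.

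Of 30 measured neuropeptides and their receptors 23 (76.7%) were higher, against 50.7% of all genes, with a median of 0.12. Sstr1 alone passed, lower. The median was 0.06 without naive replicate 4, 0.08 without day 14 replicate 3 and 0.05 among AJ-coded rats. Oprk1, the kappa opioid receptor, read 8.62, 8.94, 8.98, 8.75 and 8.91 in naive rats and 7.69, 8.26 and 8.63 as lowest, median and highest at day 14, a difference of -0.64 ± 0.13 that missed the threshold (limma adjusted p = 0.056). Calcb, the beta form of the pain-related peptide CGRP, was bright, at 12.09 to 12.32 in naive rats and 12.32 to 12.61 at day 14 (0.31 ± 0.07, adjusted p = 0.060), with 6 of 7 day 14 arrays above all naive arrays. Nppa, the atrial natriuretic peptide, stood at 0.34 ± 0.08 (adjusted p = 0.073).

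Ion channels of nociceptors were mixed, with 16 of 26 higher, a median of 0.01 and 0 called. Asic1, an acid-sensing channel, stood at -0.43 ± 0.11 (limma adjusted p = 0.086), -0.25, -0.09 and 0.05 over its 4 probe sets, and Kcnd3, a potassium channel, at -0.36 on its brightest. Trpv1, the capsaicin and heat receptor, singled out after its values were seen, read 12.19 to 12.34 in naive rats and 11.98 to 12.17 at day 14 without overlap, a difference of -0.18 ± 0.05 that did not pass (adjusted p = 0.107). Growth cone and cytoskeleton genes stood at a median of 0.03 and guidance genes at 0.04, with 0 called in either list. Marcks, an actin-linked membrane protein of growth cones, did not overlap on its brightest probe set (11.51 to 11.67 against 11.68 to 11.95, difference 0.21, adjusted p = 0.170), with 0.04 to 0.15 on the others.

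Immune and glial lists lay mostly above naive without a call. Macrophage markers were higher in 24 of 25 (96.0%) with a median of 0.21, and cytokines and chemokines in 25 of 29 (86.2%) with 0.14. Complement genes were higher in 17 of 20 (85.0%) with 0.13 and MHC presentation genes in 19 of 23 (82.6%) with 0.15. Of all genes 50.7% were higher, with a median of 0.0025. The lists are not wholly separate, as Cd74, given below, is also among the macrophage markers. Ccl2, which attracts monocytes, read 9.03, 8.76, 9.13, 8.70 and 9.27 in naive rats and 9.05, 9.83 and 10.25 at day 14, with 6 of 7 arrays above naive (0.80 ± 0.19, limma adjusted p = 0.076). Cd74, the chaperone of MHC class II, read 10.50 to 10.82 in naive rats and 10.77, 11.35 and 12.13 at day 14 (0.83 ± 0.27, adjusted p = 0.127), and Fcgr3a, an antibody receptor of macrophages, stood at 0.45 ± 0.12 (adjusted p = 0.077). The mean level over the macrophage markers was 7.50 to 7.91 on the naive arrays and 7.56 to 8.32 at day 14, highest in replicate 3 and lowest in replicate 7, the rats that were also highest and lowest for the injury list. The part of macrophage number in these values was not tested.

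These medians were larger with the code letters as a block (macrophage 0.35, complement 0.29, MHC 0.36) and among AJ-coded rats (0.42, 0.27 and 0.34). On the day 14 side both settings rest on replicates 3 and 4, so they are not separate readings. Replicate 3 was the rat highest for the macrophage markers.

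Interferon-response genes were lower in 14 of 25, with a median of -0.02 that had no settled sign. It was 0.11 with the code letters as a block and among AJ-coded rats, 0.0089 with the 3′ to 5′ covariate and 0.00096 without naive replicate 4. Markers of nonmyelinating and repair Schwann cells were higher in 13 of 14 genes, with a median of 0.13 (0.08 with the code letters as a block, 0.05 among AJ-coded rats), and their mean level did not overlap between groups, at 8.12 to 8.25 in naive rats and 8.28 to 8.45 at day 14. Gfap, a filament of activated glia, stood at 0.68 ± 0.34 (limma adjusted p = 0.278) and Sox2, a transcription factor of immature glia, at 0.30. Satellite glia markers had a median of 0.10, with Fabp7, a lipid-binding protein, at 0.50 ± 0.20 (adjusted p = 0.191). Satellite glia markers were at 0.05 without naive replicate 3 or with the block. Medians of myelinating Schwann cell markers (0.04), fibroblast markers (0.06) and endothelial markers (-0.03) depended on the arrays used. With the block and among AJ-coded rats they were -0.07 and 0.11 for myelinating Schwann cells, 0.31 and 0.39 for fibroblasts and 0.07 and 0.17 for endothelium. Myelinating Schwann cell markers were also at -0.0095 without day 14 replicate 1, fibroblast markers at -0.06 without the muscle-high arrays, and endothelial markers at 0.0091 without naive replicate 4.

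Clock genes had 13 of 20 members lower and a median of -0.13, with 0 called. The median was -0.09 without naive replicate 3 or with the block, and -0.03 among AJ-coded rats. Per2, a repressor of the clock, read 8.05, 8.26, 8.40, 7.19 and 7.98 in naive rats and 6.48, 6.90 and 7.97 at day 14, a difference of -0.89 ± 0.24 (limma adjusted p = 0.090), with 0.14 on its other probe set. Dbp, an output factor of the clock, stood at -0.90 ± 0.43 (adjusted p = 0.253), and Bmal1, an activator of the clock, at 0.30 ± 0.19 (adjusted p = 0.380). The hour at which ganglia were taken is not given in the sources used here, so its part was not tested. The lists of cytosolic ribosomal proteins, oxidative phosphorylation, RNA processing, chaperones, lipid synthesis, antioxidant genes, matrix and endosome transport had medians between -0.02 and 0.06. Ccdc127, which had been placed in the oxidative phosphorylation list, was their single call on the brightest probe sets. Its function is little known and the lists were chosen with earlier results known, so it is not read as a call for oxidative phosphorylation. The matrix list was not stable, at 0.45 among AJ-coded rats, 0.31 with the block, 0.14 without naive replicate 4 and 0.01 without the muscle-high arrays. Skeletal muscle markers stood at -0.45, with naive replicate 1 far above the rest, and at 0.21 without that array. Red blood cell markers stood at -0.57, at -0.08 without naive replicate 3, at -0.30 without day 14 replicate 5 or 7, at -0.91 without naive replicate 2 and at -0.01 with the block.

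**Figure D5:**
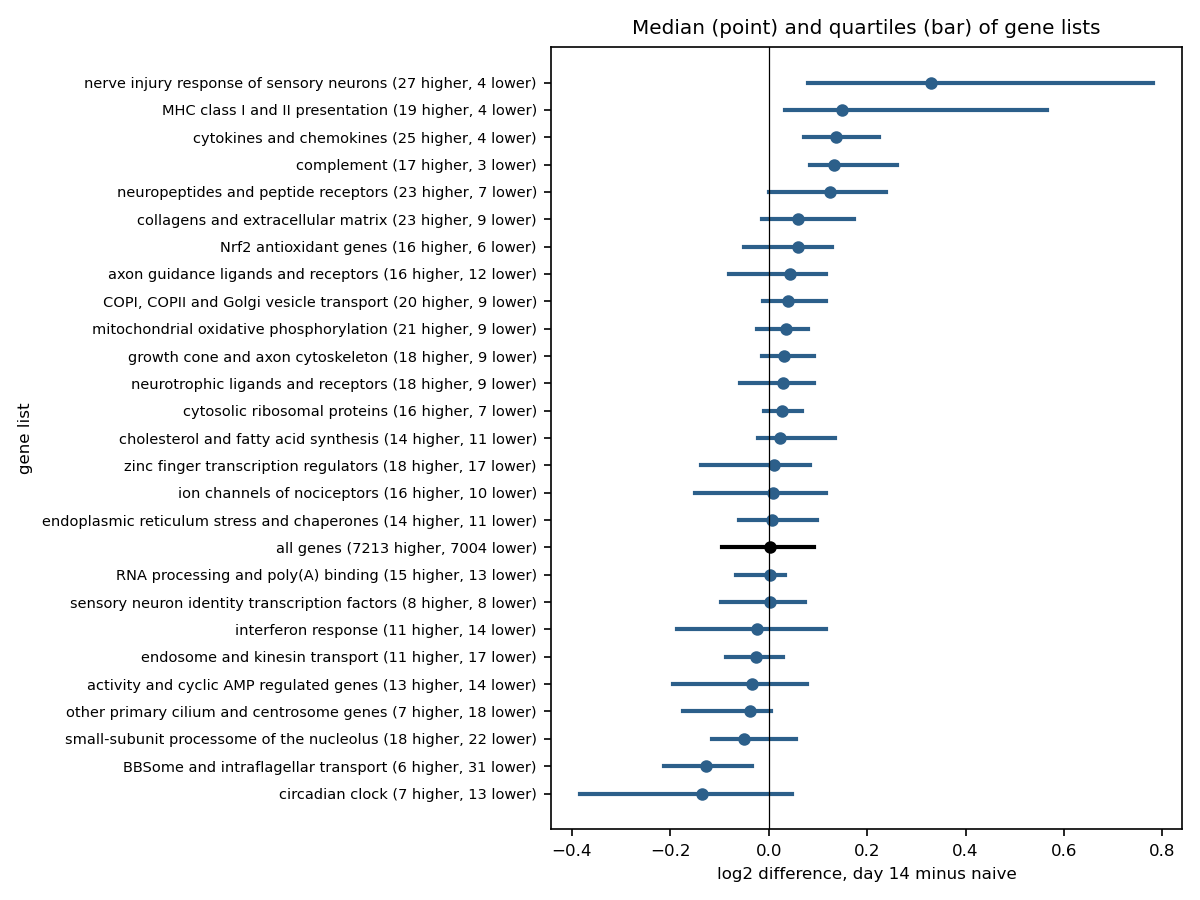
Median log2 difference of day 14 from naive (points) with the lower and upper quartile (bars) for each of 26 gene groups, cell type markers not shown, on the brightest probe set of each gene, with all 14217 genes in black and the numbers of genes higher and lower in parentheses. Among these groups the nerve injury list lies highest at 0.33, and the clock list and the BBSome and intraflagellar transport list lie lowest, both at -0.13.

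At day 7, compared with the same 5 naive rats in the same fit, the differences of the called genes can be set beside those at day 14. Shared naive arrays tie the values, and no comparison between the days is made. Bdnf stood at 0.79 at day 7 and 0.83 at day 14, Ccdc127 at -0.76 and -0.83, and Rpl37-ps2 at -0.37 and -0.48. Sstr1 stood at -0.02 and -0.39, Slc4a1ap at -0.04 and -0.27, and Ift70a1 at -0.10 and -0.45. None of these passed the test at day 7 (limma adjusted p = 0.176 to 0.968).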

How the data were processed

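Levels are the authors' deposited log2 values per probe set, made with RMA per the submitters' processing notes, which also name limma. RNA of single ganglia went through linear amplification in repeated rounds per the labels' protocols, which can favour 3′ ends, and no source used here gives upstream versions. RMA gives all arrays a common distribution, so a shift of most transcripts one way would be hidden. Of 31099 probe sets 57 are controls and were dropped. The platform annotation gave a single symbol to 20826 of the rest, several to 436 and none to 9780. The test was limma 3.58.1 under R 4.3.3 (lmFit and eBayes, 3 groups in 1 fit, two-sided, Benjamini-Hochberg over 31042 probe sets, threshold 0.05). The method was also run on simulated data, with planted differences all larger than the median called size. Arrays were shuffled between groups there, which removes the imbalance of code letters and of the 3′ to 5′ ratio. That run therefore cannot judge the calls given here. Descriptions used Python 3.11.15.

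Named were all called genes, genes whose probe sets agree, the 8 largest differences without overlap per direction, up to 4 members per list and a set of known genes. Members and lists were chosen with earlier results of these data known. Alternatives changed the samples, moderation, normalization, filter, weights, block, covariate, probe set and threshold and left out each array.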

Additional observations from a re-analysis of the deposited data

Results flagged for a closer look

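Among 248 groups of 5 or 7 values examined for the named and called probe sets, 16 held an array that lay far from the others, judged by its gap to the nearest array over the range of the group. Chance alone gives about 1 in 20 groups, here 12.4. At day 14, replicate 3 was far below the other rats for the unnamed probe set 1391735_at (5.33, next rat 7.31), for the unnamed called probe set 1391764_at (8.19, next 8.57) and for the second Nrg1 probe set (8.90, next 9.64). Replicate 5 was far below for Bbs5 (6.17) and far above for Cxcl9 (4.93), replicate 1 was far below for the called Copz1 probe set (7.09), and replicate 7 far below for Frzb (6.53).

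Among naive rats, replicate 4 was far above the others for Fosb (7.48), Asic1 (9.18), Txnrd1 (10.89) and the unnamed called probe set 1397791_at (5.36), and far below for Zfp322a (5.27). Replicate 1, the array high in muscle transcripts, was far below for the dimmer Rasgrp2 probe set (5.21) and far above for the dimmer Ifngr2 probe set (5.03). Replicate 2 was far above for the dimmer Gap43 probe set (4.16) and far below for Crisp3 (4.99).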

How the results depend on the processing

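Of 43 called probe sets, 43 kept their sign under each alternative that kept all probe sets, and 38 of 38 with dim probe sets left out. Having been chosen on these same arrays, they were likely to do so. The number of calls moved widely. It was 13 with the day 14 and naive arrays alone, 28 after quantile renormalization, 76 with array weights, 1 among AJ-coded arrays alone, 12 without the muscle-high arrays, 14 with 1 value per gene and 729 at an adjusted p of 0.10. With limma it was 0 with the code prefix as a block and 0 with the 3′ to 5′ covariate (1996 and 3334 at an unadjusted p under 0.05). Leaving out 1 array at a time gave 5 to 401 calls. Genes with 2 probe sets without overlap numbered 1 with dim probe sets left out, 18 without the muscle-high arrays, 91 where 1 such probe set was enough, and 2 to 15 when 1 array was left out. With the replicate number as a block 9 probe sets were called, 7 of them among the 43. Same-numbered naive and day 14 arrays, which are different animals, correlated at -0.205 to 0.216 in their deviations from the group means. Differently numbered arrays were not correlated, so these values cannot settle whether the numbers carry a pairing. Of 26 gene group medians 12 turned sign under some alternative, all of them between -0.03 and 0.04 with all arrays, and so did 8 of 14 marker medians.

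Some small differences turned sign, and the cause was not tested. With the code prefix as a block these were Dync2h1 (-0.044), Kif3a (-0.097), the brightest of the uncalled Kif16b probe sets (-0.032) and the Nrg1 probe set that stood at 0.11 (-0.19). Among AJ-coded arrays they were the brighter Paxbp1 (0.032) and Copz1 (-0.019) probe sets, the same Kif16b (-0.039) and the same Nrg1 (-0.081). With the 3′ to 5′ covariate they were Kif3a (-0.021) and Kif16b (-0.10). With the replicate block they were the dimmer Gap43 probe set (0.016) and Kif16b (-0.0038). The mean over a gene's probe sets, an alternative chosen after seeing the data, lay on the other side of naive from some single probe sets. They were the dimmer Gap43 probe set (gene mean 0.039), the uncalled Mzf1 probe set (-0.28) and the same Nrg1 (-0.060). The called Mzf1 probe set kept its sign. With 1 array left out at a time, Kif16b ranged from -0.046 to 0.056, the dimmer Gap43 probe set from -0.034 to 0.049, and the Tnik probe set that stood at 0.06 from -0.017 to 0.12. The brighter Eif4e3 probe set reached 0.0094 without day 14 replicate 3.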
